A study of Mus musculus with 36 samples.

Results

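The genes of translation initiation factors were taken as all rows of the count table whose symbol begins with Eif followed by a digit from 1 to 6, leaving out the *Eif2ak* kinases, *Eif2s3x*, *Eif2s3y* and pseudogene names. This gave 55 of 38283 rows. Of these, 49 were counted as initiation factor genes. They include eIF5A, the inhibitory eIF4E-binding proteins, the eIF4E transporter and *Eif4a3*, the helicase of the exon junction. The other 6 were rows under the older *Eif2c* names of the Argonaute family, which acts in RNA silencing and not in initiation. Among these rows *Eif2c2* occurs more than once, and *Eif2c5* is annotated as a long non-coding RNA. The Argonaute rows are counted apart. Enough counts for testing were found for 47 of the 49 initiation factor genes and 5 of the 6 Argonaute rows. *Eif4e1b* had 9 counts over all 36 libraries, *Eif3j2* had 15 and *Eif2c5* had 21.

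Translation initiation factors load ribosomes onto messenger RNA. eIF4E binds the cap, the scaffold eIF4G joins it to the RNA helicase eIF4A, and eIF4B and eIF4H assist the helicase, while the binding proteins 4E-BP1, 4E-BP2 and 4E-BP3 hold eIF4E away from the scaffold until mTORC1, a kinase downstream of insulin and PI3-kinase, phosphorylates them. eIF2 carries the initiator tRNA and is recharged with GTP by eIF2B, the large complex eIF3 organises the small ribosomal subunit, and eIF1, eIF1A, eIF5 and eIF5B act in start-codon choice and in joining of the large subunit. In liver, feeding and insulin are known to act on this machinery mainly through phosphorylation, which RNA sequencing does not measure.

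Livers came from 36 male C57Bl/6J mice, all 16 weeks old, with 6 mice in each of 6 groups. The wild-type littermates carried no targeted allele, and WT/Y657* mice were heterozygous for a *Pik3r1* knock-in whose Y657* stop truncates p85α, the regulatory subunit of PI3-kinase, and models SHORT syndrome. The allele was present in every tissue, so hepatocytes cannot be told apart from other organs as its site of action. Each genotype was sampled fed with free access to chow, after a 16 h fast, or 6 h into refeeding after a 16 h fast. *Pik3r1* itself had genotype log2 fold changes of 0.037, 0.048 and 0.23 in the fed, fasted and refed state (edgeR adjusted p = 0.886, 0.807 and 0.423), and these counts hold both alleles.

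Library totals ran from 8839481 to 19542778 counts. The summed level of 8 hepatocyte markers was 58200 to 102000 normalised CPM (counts scaled to a common library total), against 201 to 691 CPM for the 5 Kupffer cell markers found and 2.82 to 12.1 CPM for 4 cholangiocyte markers. On the third principal component, which held 9.8% of the variance, fed WT/Y657* mice ALC_MT_866, ALC_MT_868 and ALC_MT_869 (numbered as in the labels, where ALC stands before fed, ONF before fasted and RF6 before refed mice, and MT for WT/Y657*) lay apart from the other 3 of their group, fasted WT/Y657* mice ONF_MT_806 and ONF_MT_827 from the other 4, and refed WT/Y657* mice RF6_MT_810 and RF6_MT_898 from the other 4. Summed Kupffer cell markers were 440 to 691 CPM in the first set against 201 to 443 in the rest of that group, and 391 to 421 CPM in the second against 251 to 370 and 322 to 631 CPM in the third against 225 to 371. Refed wild-type mouse RF6_WT_828 also lay apart from its group on that component (0.182 against -0.065 to 0.036), and was left out only singly. On the first principal component, mice ALC_MT_866, ALC_MT_868 and ALC_MT_869 lay at 0.059 to 0.065 and all other fed mice at 0.199 to 0.282. Refed mice lay there at -0.041 to 0.034 and fasted mice at -0.256 to -0.104. Summed markers of sinusoidal endothelium (5 genes) were 208 to 284 CPM in fed, 292 to 339 in fasted and 233 to 301 in refed wild-type mice, and 242 to 300, 278 to 342 and 231 to 258 CPM in WT/Y657* mice, so all fasted wild-type mice lay above all fed ones and all refed WT/Y657* mice below all fasted ones. Those of stellate cells (5 genes) were 250 to 366 CPM in fed wild-type and 346 to 485 in fed WT/Y657* mice, 305 to 368 and 332 to 479 fasted and 279 to 405 and 277 to 353 refed. For 4 leukocyte genes, 2 of them at a mean CPM of at least 1, sums ran from 10.6 to 48.8 CPM. The part of these cell types in the results was not tested. Levels are CPM scaled by TMM (trimmed mean of M-values), quoted as the lowest, the median and the highest of the 6 mice. Fold changes are log2 with their standard error (SE) and a Benjamini-Hochberg adjusted p over 13945 genes from edgeR's quasi-likelihood test, and a gene is called under 0.05. In whole liver, fewer cells of a type and less RNA per cell cannot be told apart.

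Nearly all of the machinery was expressed. On a length-scaled level (CPM per kb of exon) in fed wild-type mice, the scaffold gene *Eif4g1* at 81.7 ± 3.60 (SD, n = 6) and *Eif5a*, whose hypusine-modified product aids peptide bond formation, at 79.0 ± 3.52 did not differ beyond their spread. *Eif4b* followed at 52.5 ± 3.85, the non-canonical scaffold gene *Eif4g2* at 44.0 ± 1.67 and the eIF3 subunit gene *Eif3h* at 43.5 ± 1.93. At the other end, *Eif2b3*, a subunit of the eIF2B exchange factor, stood at 1.59 ± 0.225, the atypical cap-binding gene *Eif4e3* at 2.21 ± 0.783 and *Eif5a2* at 0.0946 ± 0.0291. The length joins all annotated exons, which gives 6520 bases for *Eif2b3* against 1885 to 2599 for the other eIF2B subunit genes. Its low rank depends on that length.

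**Figure D1:**
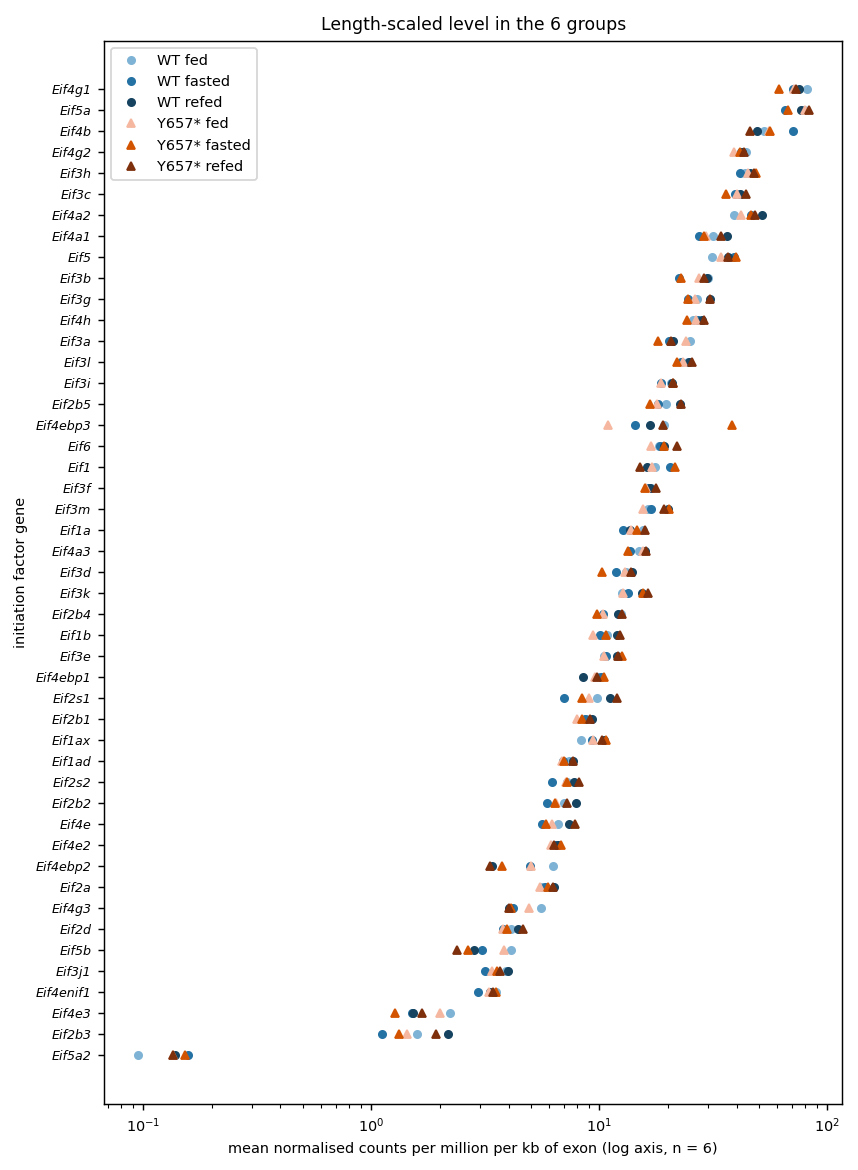
Mean level of the 47 tested initiation factor genes in each of the 6 groups (n = 6 mice each), as normalised CPM per kb of exon on a log axis, ordered by the level in fed wild-type mice. For most genes the 6 symbols lie close together, and Eif4ebp3 in fasted WT/Y657* mice stands apart at 38.1.

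Paralogs were present at unequal levels. *Eif4a1* and *Eif4a2* encode paralogous eIF4A helicases, and the length-scaled ratio of the first to the second had a median of 0.760 in fed wild-type mice, 0.588 in fasted mice and 0.698 in refed mice, with medians of 0.719, 0.589 and 0.718 in WT/Y657* mice. For *Eif4g1* over *Eif4g3*, the 2 canonical scaffolds, the medians lay between 14.8 and 18.6 in the 6 groups. The 4E-BP gene *Eif4ebp2* had a median ratio to its target *Eif4e* of 0.939 fed, 0.842 fasted and 0.485 refed in the wild type, and all 6 refed mice, at 0.316 to 0.596, lay below all fed and fasted wild-type mice. In WT/Y657* mice the states overlapped, at 0.512 to 1.15 fed, 0.561 to 0.745 fasted and 0.366 to 0.583 refed. Mice of a group differed little from one another in these genes, with a median within-group SD of 0.121 on the log2 scale, against 0.239 over all genes tested. *Eif4ebp3* at 0.660, *Eif5a2* at 0.476 and *Eif4e3* at 0.407 were the widest of the 47.

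Sequence upstream of the start site was read from RefSeq (GRCm38.p6), which held 37 of the 49 genes. Shown are the 250 bases before the start of 5 genes whose levels are described below, each 5′ to 3′ on the gene's own strand. They are a subunit of eIF2 that moved with feeding (*Eif2s1*), a helicase (*Eif4a1*), the scaffold (*Eif4g1*), an eIF3 subunit (*Eif3m*) and a 4E-BP (*Eif4ebp2*). Capitals mark 3 motifs searched on both strands: the E-box CACGTG, bound by MYC, USF and clock factors, the ETS motif CCGGAAG and the GC box GGGCGG, known as an Sp1 site.
Eif2s1 (chr12:78861822-78862071, plus strand): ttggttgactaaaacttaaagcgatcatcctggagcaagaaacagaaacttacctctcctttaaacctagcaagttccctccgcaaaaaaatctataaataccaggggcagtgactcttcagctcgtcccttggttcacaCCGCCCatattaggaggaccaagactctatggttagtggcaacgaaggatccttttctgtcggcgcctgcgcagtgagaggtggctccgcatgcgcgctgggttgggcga
Eif4a1 (chr11:69672424-69672673, minus strand): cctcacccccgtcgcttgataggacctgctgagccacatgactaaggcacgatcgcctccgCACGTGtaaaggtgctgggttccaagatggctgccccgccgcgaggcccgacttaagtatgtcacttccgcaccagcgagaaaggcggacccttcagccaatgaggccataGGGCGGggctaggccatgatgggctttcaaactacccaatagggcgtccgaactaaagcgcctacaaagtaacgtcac
Eif4g1 (chr16:20672477-20672726, plus strand): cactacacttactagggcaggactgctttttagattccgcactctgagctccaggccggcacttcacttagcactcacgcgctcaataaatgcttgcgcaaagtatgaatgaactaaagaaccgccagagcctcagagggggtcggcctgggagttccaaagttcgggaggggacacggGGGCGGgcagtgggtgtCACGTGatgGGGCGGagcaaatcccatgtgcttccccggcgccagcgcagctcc
Eif3m (chr2:105017028-105017277, minus strand): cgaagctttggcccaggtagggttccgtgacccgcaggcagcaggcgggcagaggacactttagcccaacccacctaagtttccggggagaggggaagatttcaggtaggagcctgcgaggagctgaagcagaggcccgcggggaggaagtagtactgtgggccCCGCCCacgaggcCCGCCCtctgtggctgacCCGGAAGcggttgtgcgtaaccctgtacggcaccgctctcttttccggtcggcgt
Eif4ebp2 (chr10:61452670-61452919, minus strand): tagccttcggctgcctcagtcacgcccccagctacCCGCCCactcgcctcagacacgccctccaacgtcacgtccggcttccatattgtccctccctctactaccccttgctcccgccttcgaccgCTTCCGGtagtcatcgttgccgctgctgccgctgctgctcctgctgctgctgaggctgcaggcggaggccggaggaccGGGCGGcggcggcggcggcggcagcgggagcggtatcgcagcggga
The E-box was found upstream of 7 of the 37 genes (18.9%, against 8.4% of 10448 promoters of tested genes), the ETS motif upstream of 10 (27% against 13.6%) and the GC box upstream of 27 (73.0% against 57.5%). Adjacent GC boxes can overlap one another. The forkhead motif GTAAACA, known for FoxO factors, and the cyclic AMP element TGACGTC were in 0 of the 37 windows, against 2.2% and 4.7% of promoters. Messages of the translation apparatus often start with a C and a run of pyrimidines, which makes their translation sensitive to mTORC1. A C followed by at least 4 pyrimidines within 5 bases of the listed start was present in 7 of the 37 genes (18.9%, against 20.1% of promoters). The 30 bases around 3 of these starts follow, with such runs in capitals.
Eif3f (chr7:108934405-108934434, plus strand): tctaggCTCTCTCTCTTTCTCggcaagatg
Eif2b5 (chr16:20498807-20498836, plus strand): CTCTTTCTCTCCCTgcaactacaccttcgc
Eif4g1 (chr16:20672717-20672746, plus strand): gcgcagctccgCCCTCTgcgccggtcacgt
These matches describe letters near the listed starts, and binding or start-site use was not measured.

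In wild-type mice, fasting lowered more initiation factor genes than it raised. Of 47 tested, 15 were lower and 3 higher in fasted than in fed mice (38.3% called, against 32% of all genes tested, 17.5% lower and 14.5% higher), and the median log2 fold change was -0.12 against 0.010 over all genes. Refeeding went mostly the other way, with 19 genes higher and 4 lower in refed than in fasted wild-type mice (48.9% called, against 30.2% of all genes, 16.5% higher and 13.7% lower). The 4 lower genes were *Eif4b*, *Eif4ebp1*, *Eif4ebp2* and *Eif1*. Without refed mouse RF6_WT_816, 15 genes were called, and scaled to library size alone 26 were higher and 2 lower. Relative to the fed state, 12 genes were higher and 4 lower in refed wild-type mice (34% called, against 27.5%, 13.2% higher and 14.3% lower). The fasted mice enter both the fasting and the refeeding comparison, so a low value in them counts in both.

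In WT/Y657* mice, fasting gave 8 genes higher and 10 lower (38.3% called, against 32.9% of all genes, 15.2% higher and 17.7% lower), with a median of 0.014. Scaled to library size alone, the same comparison gave 4 higher and 12 lower. Refeeding gave 18 higher and 3 lower (44.7%, against 31.3%, 17.1% higher and 14.2% lower), with 22 higher and 1 lower by library size alone, and refed against fed mice 15 higher and 4 lower (40.4%, against 26.1%, 13% higher and 13.1% lower). Without refed mice RF6_MT_810 and RF6_MT_898, 18 genes were called on refeeding, 17 of them among the 21, and 16 in refed against fed mice, 15 of them among the 19. Without fed mice ALC_MT_866, ALC_MT_868 and ALC_MT_869, refed against fed mice gave 14, with 10 among the 19. Both genotypes shared 7 of their 18 called fasting genes each (38.9% of either list), 14 of 23 and 21 refeeding genes (60.9% and 66.7%), and 12 of 16 and 19 in the refed against fed comparison (75.0% and 63.2%), all in the same direction. Over all genes tested the shared calls were 57.2% of the wild-type and 55.7% of the WT/Y657* list on fasting, 59.7% and 57.6% on refeeding, and 55.5% and 58.6% for refed against fed. These overlaps compare separate mice. In each of these 6 feeding comparisons, all called genes had the same direction within the lower and the upper series of mouse numbers of the fasted or refed groups. These genes were called on the same mice, and the fed groups were not split, so this agreement was largely set in advance and adds no support. No fed mouse number lay within either series, so comparisons with fed mice cannot be told apart from a difference in mouse number. Shared on fasting were *Eif4g1*, *Eif4g3*, *Eif3a*, *Eif3b*, *Eif5a* and *Eif5b*, which fell, and *Eif5*, which rose. Of the 5 Argonaute rows, 1 was lower on fasting in each genotype (*Eif2c3* in wild-type and *Eif2c1* in WT/Y657* mice), and 3 and 1 were lower on refeeding.

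Beyond the genes described below, *Eif4enif1*, the gene of the eIF4E transporter, fell on fasting in wild-type mice (-0.27, a call lost in 7 of 22 alternatives), and the helicase of the exon junction, *Eif4a3*, fell on fasting in WT/Y657* mice (-0.22, lost without fed mice ALC_MT_866, ALC_MT_868 and ALC_MT_869) and rose on refeeding in both genotypes (0.22 and 0.27). On refeeding in WT/Y657* mice the eIF3 subunit genes *Eif3c* (0.28), *Eif3l* (0.22) and *Eif3f* (0.16), the eIF4A partner gene *Eif4h* (0.24) and *Eif2d* (0.23), whose product delivers tRNA without eIF2, also rose. The call of *Eif3f* was lost in 16 of 24 alternatives (adjusted p up to 0.272) and that of *Eif2d* in 10 of 24 (up to 0.131). Compared with fed WT/Y657* mice, refed mice were higher in *Eif6* (0.39), which keeps the large ribosomal subunit from joining early, *Eif1b* (0.39), *Eif2d* (0.29), *Eif3i* (0.17) and *Eif2s2* (0.18). Without fed mice ALC_MT_866, ALC_MT_868 and ALC_MT_869 only *Eif6* of these 5 was called, and *Eif2d* had an adjusted p of 0.362. The eIF3 genes *Eif3e*, *Eif3g*, *Eif3k* and *Eif3m* were higher in refed than in fed mice of both genotypes, by 0.19 to 0.29 in wild-type and 0.20 to 0.37 in WT/Y657* mice (the calls of *Eif3g* were lost in 11 of 22 and 7 of 24 alternatives), and *Eif3a* was lower in wild-type mice (-0.25).

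**Figure D2:**
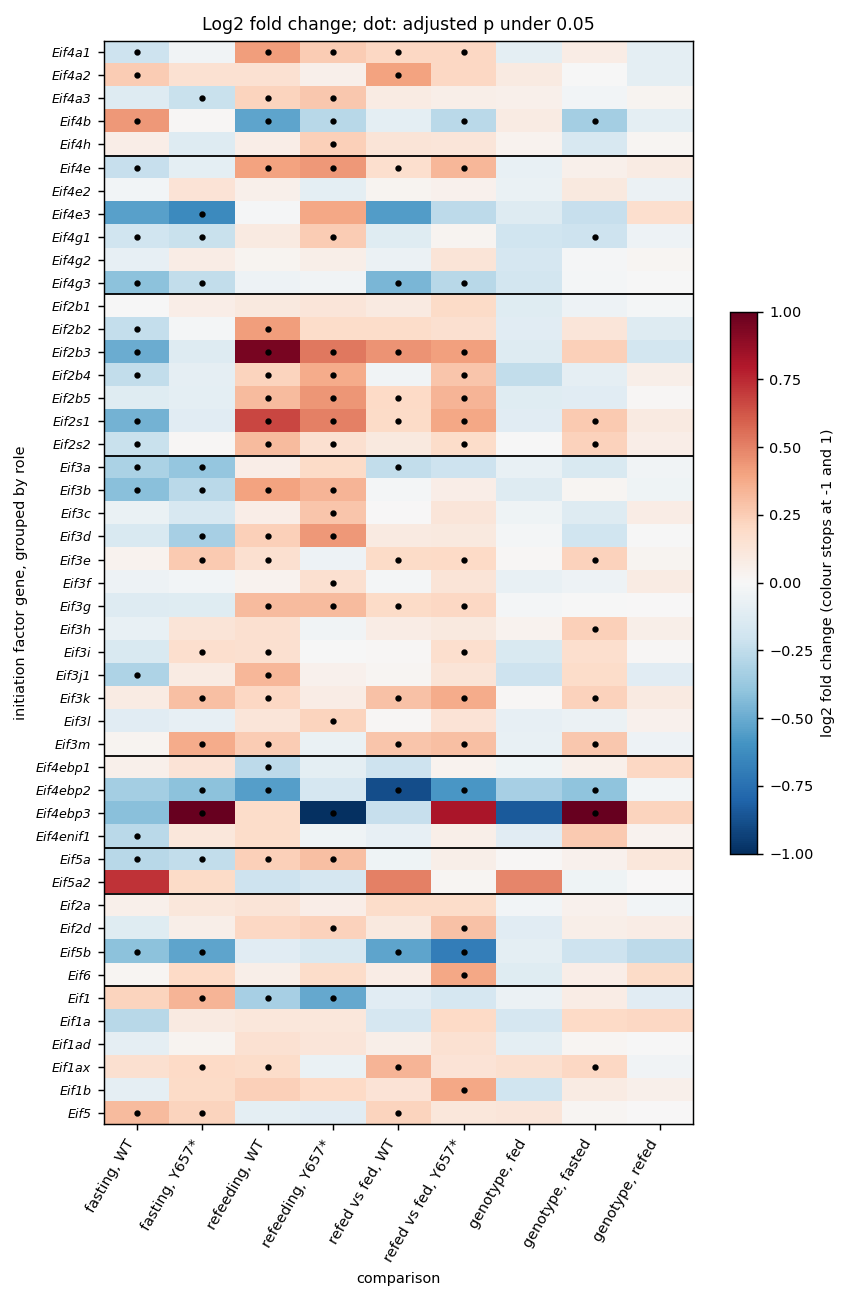
Log2 fold change of the 47 genes (rows, grouped by role) in 9 comparisons (columns), with a dot where the adjusted p was under 0.05 and colours that stop at -1 and 1. The eIF2 and eIF2B rows are mostly blue for fasting in wild-type mice and red for refeeding in both genotypes, where 6 and 5 of the 7 genes were called.

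The genes of eIF2 and its exchange factor eIF2B, the step that supplies initiator tRNA, were mostly lower in fasted than in fed and refed wild-type mice. On fasting 5 of 7 were lower and 0 higher, and on refeeding 6 were higher and 0 lower, against 17.5% lower on fasting and 16.5% higher on refeeding over all genes tested. Calls of *Eif2b2* on fasting and *Eif2b4* on refeeding were lost in 12 and 10 of 22 alternatives. *Eif2s1*, which encodes the eIF2 subunit that stress kinases phosphorylate, was at 43.7, 47.3 and 54.6 CPM fed, 31.7, 34.7 and 37.5 fasted and 49.8, 54.9 and 59.7 refed in the wild type. All fasted mice lay below all fed and all refed mice, while fed and refed mice overlapped. Its log2 fold change was -0.47 (SE 0.072, adjusted p = 2.31e-06) on fasting and 0.67 (SE 0.072, adjusted p = 5.31e-09) on refeeding. In WT/Y657* mice *Eif2s1* was at 42.9, 44.3 and 47.4 CPM fed, 35.2, 42.5 and 46.6 fasted and 50.5, 59.2 and 65.5 refed, so fasted and fed mice overlapped and all refed mice lay above both. Fasting there gave -0.11 (SE 0.072, adjusted p = 0.254) and refeeding 0.50 (SE 0.071, adjusted p = 8.51e-07).

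*Eif2b3*, an eIF2B subunit gene, had the largest refeeding response of the 47 genes in wild-type mice, at 0.95 (SE 0.12, adjusted p = 8.02e-08). Wild-type levels were 8.61, 10.4 and 12.5 CPM fed, 6.03, 7.56 and 7.96 fasted and 11.9, 13.6 and 18.6 refed, with no overlap between the fasted and either other group. WT/Y657* mice were at 8.01, 9.06 and 11.6 CPM fed, 8.02, 8.73 and 9.33 fasted and 8.54, 13.3 and 14.3 refed, and 5 of the 6 refed mice lay above all fasted mice. Refeeding there gave 0.53 (SE 0.12, adjusted p = 0.000485). The exchange factor's catalytic subunit gene *Eif2b5* rose on refeeding by 0.32 in wild-type (SE 0.070, adjusted p = 0.000465) and 0.44 in WT/Y657* mice (SE 0.070, adjusted p = 5.27e-06). Of the other members, *Eif2b4* and *Eif2s2* were called on refeeding in both genotypes and *Eif2b2* in wild-type mice, and *Eif2b1* was called in no comparison. None of the 7 was called on fasting in WT/Y657* mice, with a median of -0.093. In refed against fed WT/Y657* mice 5 were higher (13% of all genes were), of which *Eif2s1* and *Eif2b5* were called without fed mice ALC_MT_866, ALC_MT_868 and ALC_MT_869 and *Eif2b3* (adjusted p = 0.167), *Eif2b4* and *Eif2s2* were not. On refeeding in WT/Y657* mice *Eif2s2* lost its call in 10 of 24 alternatives.

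**Figure D3:**
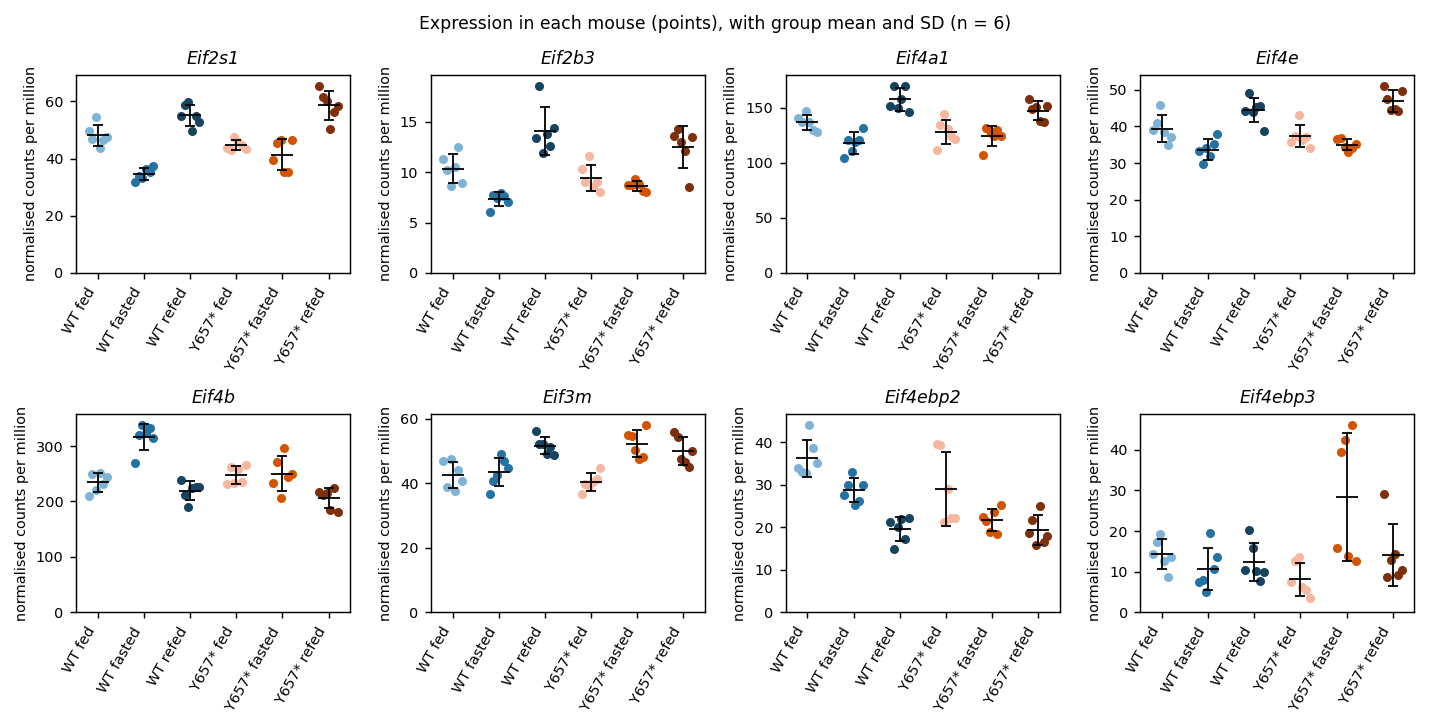
Normalised CPM in every mouse for 8 initiation factor genes, with points for mice and bars for group mean and SD (n = 6), axes starting at 0. Fasted wild-type mice are the lowest wild-type group for Eif2s1 and Eif2b3 and the highest for Eif4b, and fasted WT/Y657* mice spread from 12.6 to 46.1 for Eif4ebp3.

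Among cap-binding and scaffold genes, *Eif4e* rose on refeeding in both genotypes. It was at 35, 38.7 and 45.8 CPM fed, 29.8, 33.8 and 37.8 fasted and 38.7, 44.7 and 49.1 refed in the wild type, and at 34.2, 36.8 and 43.0, then 32.9, 34.8 and 36.8, then 44.3, 46.0 and 51.1 in WT/Y657* mice. Every refed mouse lay above every fasted mouse of its genotype. The rise was 0.40 (SE 0.067, adjusted p = 1.65e-05) in wild-type and 0.43 (SE 0.067, adjusted p = 5.60e-06) in WT/Y657* mice, and the fasting response was -0.23 (SE 0.068, adjusted p = 0.0093) and -0.095 (SE 0.068, adjusted p = 0.298).

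*Eif4g1*, the main scaffold gene, fell by 0.20 (SE 0.072, adjusted p = 0.0256) on fasting in wild-type and by 0.22 (SE 0.072, adjusted p = 0.0157) in WT/Y657* mice. It was at 552, 608 and 617 CPM fed, 488, 513 and 569 fasted and 450, 550 and 611 refed in wild-type mice, where all 3 ranges overlapped. WT/Y657* mice were at 466, 529 and 564 CPM fed, 408, 451 and 469 fasted and 483, 517 and 590 refed, and there all refed mice lay above all fasted mice (log2 fold change 0.25, SE 0.072, adjusted p = 0.00733). In the fed WT/Y657* group, mice ALC_MT_866, ALC_MT_868 and ALC_MT_869 were at 466 to 501 CPM and the other 3 at 556 to 564.

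*Eif4g3*, the second canonical scaffold, fell on fasting, and refed mice stayed below fed mice. Wild-type mice were at 56.1, 61.5 and 67.0 CPM fed, 39.8, 45.0 and 55.0 fasted and 42.5, 42.8 and 50.7 refed, with all fed mice above the others. The refed against fed difference was -0.46 (SE 0.090, adjusted p = 0.000171) in wild-type and -0.28 (SE 0.090, adjusted p = 0.0168) in WT/Y657* mice, where the fed group was wide at 42.9, 52.4 and 69.0 CPM (mice ALC_MT_866, ALC_MT_868 and ALC_MT_869 at 42.9 to 48.7, the other 3 at 56.2 to 69.0) and fasted and refed mice were at 40.2, 46.2 and 47.5 and at 38.3, 44.2 and 50.6 CPM. In WT/Y657* mice the fasting call of *Eif4g3* was lost in 8 of 24 alternatives (adjusted p up to 0.126). Its refed against fed call there was lost in 6 of 24 (adjusted p up to 0.184). *Eif4e3* was called on fasting in WT/Y657* mice, at -0.64 (SE 0.24, adjusted p = 0.0347), with 2.90, 4.96 and 6.90 CPM fed and 2.48, 3.09 and 4.09 fasted. These groups overlapped, and refed mice were at 2.61, 4.24 and 5.97 CPM. The fasting call was lost in 9 of 24 alternatives (adjusted p up to 0.104). Wild-type mice, at 3.82, 4.51 and 8.69 CPM fed, 3.09, 3.70 and 4.65 fasted and 2.43, 3.32 and 6.80 refed, had a fasting value of -0.54 that was not called (SE 0.24, adjusted p = 0.075). *Eif4e3* also shares 373 exonic bases with an overlapping transcript on its strand.

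The helicase genes and their partners moved in different directions. *Eif4a1* was at 128, 137 and 147 CPM fed, 104, 120 and 132 fasted and 146, 155 and 170 refed in the wild type. Its refeeding response was 0.42 (SE 0.064, adjusted p = 3.27e-06) in wild-type and 0.25 (SE 0.064, adjusted p = 0.00287) in WT/Y657* mice, where it was at 112, 128 and 144 CPM fed, 107, 127 and 132 fasted and 137, 150 and 158 refed. In both genotypes all refed mice lay above all fasted mice. Of its exonic 50-base stretches, 28.4% also occur elsewhere in annotated transcripts, mostly pseudogenes, and its counts are uncertain to that extent. The paralog *Eif4a2* rose on fasting in wild-type mice (0.25, SE 0.085, adjusted p = 0.0209), the opposite direction from *Eif4a1* (-0.21, SE 0.064, adjusted p = 0.0101), and was higher in refed than in fed wild-type mice (0.40, SE 0.085, adjusted p = 0.000427).

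*Eif4b*, whose product stimulates the helicase, rose on fasting in wild-type mice. It was at 210, 238 and 252 CPM fed, 270, 322 and 338 fasted and 190, 225 and 239 refed, and all fasted mice lay above all others. The fold change was 0.43 (SE 0.077, adjusted p = 3.06e-05) on fasting and -0.53 (SE 0.077, adjusted p = 1.55e-06) on refeeding. WT/Y657* mice were at 231, 248 and 266 CPM fed, 207, 247 and 297 fasted and 181, 213 and 224 refed. Fed and fasted mice of this genotype overlapped throughout (0.013, SE 0.077, adjusted p = 0.921), and refeeding gave -0.28 (SE 0.077, adjusted p = 0.00404).

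The 3 genes of the 4E-BPs, which restrain eIF4E, had 3 different patterns. *Eif4ebp1* varied little, at 19.1, 21.5 and 23.9 CPM fed, 20.2, 22.5 and 24.5 fasted and 17, 18.4 and 21.7 refed in wild-type mice and at 18, 20.8 and 23.9, then 21.2, 23.1 and 25.8, then 17.4, 20.9 and 28.5 in WT/Y657* mice. It was called in 1 comparison, refeeding in wild-type mice, at -0.26 (SE 0.090, adjusted p = 0.0238), and the groups overlapped. Without refed mice RF6_MT_810 and RF6_MT_898 the refeeding value of WT/Y657* mice was called as well.

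*Eif4ebp2* was lowest in refed mice. In wild-type mice it stood at 32.8, 34.4 and 44.0 CPM fed, 25.3, 28.8 and 32.9 fasted and 14.9, 20.6 and 22.2 refed, and no refed mouse reached a fed or fasted mouse. Refed against fed gave -0.89 (SE 0.14, adjusted p = 8.63e-06) and refeeding -0.55 (SE 0.14, adjusted p = 0.00229). WT/Y657* mice were at 21.2, 25.6 and 39.6 CPM fed, 18.4, 21.9 and 25.1 fasted and 15.7, 18.3 and 25 refed, with overlap between all 3 states. Refed against fed gave -0.58 there (SE 0.14, adjusted p = 0.00156) and refeeding -0.17 (SE 0.14, adjusted p = 0.373).

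*Eif4ebp3* rose on fasting in WT/Y657* mice by 1.82 (SE 0.39, adjusted p = 0.000459). Fed WT/Y657* mice were at 3.40, 6.83 and 13.5 CPM, fasted mice at 12.6, 27.6 and 46.1 and refed mice at 8.65, 11.7 and 29.2, and 5 of the 6 fasted mice exceeded all fed mice. The fasted mice fell apart, with 12.6, 13.8 and 15.8 CPM in 3 mice and 39.4, 42.4 and 46.1 in the others. Wild-type mice were at 8.63, 14 and 19.3 CPM fed, 4.89, 9.25 and 19.6 fasted and 7.75, 10.2 and 20.2 refed, with overlap throughout and -0.42 (SE 0.39, adjusted p = 0.445) on fasting. The gene lies at the end of *Ankhd1*, an annotated readthrough transcript on the same strand covers 501 of its exonic bases, and 65.5% of its 50-base stretches are shared, so its counts are uncertain. *Ankhd1* itself was at 46.3, 51.5 and 54.7 CPM in fasted WT/Y657* and 45.9, 49.5 and 55.3 in fasted wild-type mice, which overlapped.

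The 13 tested eIF3 subunit genes did not move as a block. On fasting in wild-type mice 3 were lower (*Eif3a*, *Eif3b* and *Eif3j1*) and 0 higher, while in WT/Y657* mice *Eif3a*, *Eif3b* and *Eif3d* were lower and *Eif3e*, *Eif3i*, *Eif3k* and *Eif3m* higher. Over all genes tested 17.5% were lower in the first comparison, and 17.7% lower and 15.2% higher in the second. *Eif3i* there lost its call in 12 of 24 alternatives. Refeeding raised 8 of the 13 in wild-type mice (*Eif3b*, *Eif3d*, *Eif3e*, *Eif3g*, *Eif3i*, *Eif3j1*, *Eif3k* and *Eif3m*), raised 6 in WT/Y657* mice (*Eif3b*, *Eif3c*, *Eif3d*, *Eif3f*, *Eif3g* and *Eif3l*) and lowered 0, against 16.5% and 17.1% of all genes raised. In wild-type mice the refeeding calls of *Eif3e* and *Eif3i* were lost in 13 of 22 alternatives each (adjusted p up to 0.279 and 0.129), and that of *Eif3k* in 6. Of the exonic bases of *Eif3d*, 2151 are overlapped by an antisense gene, and its counts are uncertain to that extent. *Eif3b* was at 97.3, 99.3 and 107 CPM fed, 68.9, 74.7 and 81.1 fasted and 88.7, 97.5 and 114 refed in wild-type mice, and all fasted mice lay below all others. It fell by 0.42 (SE 0.069, adjusted p = 9.63e-06) on fasting and rose by 0.40 (SE 0.069, adjusted p = 2.28e-05) on refeeding. In WT/Y657* mice, at 81.4, 91.7 and 98.0, then 66.6, 77.4 and 81.1, then 83.2, 93.9 and 110 CPM, the changes were -0.27 (SE 0.069, adjusted p = 0.00215) and 0.34 (SE 0.069, adjusted p = 0.000199).

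*Eif3m*, also an eIF3 subunit gene, was at 37.6, 42.3 and 47.5 CPM fed, 36.6, 43.8 and 49.0 fasted and 48.8, 51.8 and 56.2 refed in wild-type mice, and at 36.6, 40.2 and 44.9, then 47.6, 52.5 and 58.1, then 45.2, 48.8 and 55.8 in WT/Y657* mice. All fasted WT/Y657* mice lay above all fed ones (0.37, SE 0.072, adjusted p = 0.000104), whereas fasted and fed wild-type mice overlapped (0.029, SE 0.072, adjusted p = 0.804). *Eif3j1*, whose product joins eIF3 loosely, was at 20.6, 22.3 and 25.6 CPM fed, 16.5, 18.5 and 19.8 fasted and 21.2, 23 and 25 refed in wild-type mice, with fasted mice below all others. WT/Y657* mice overlapped in all states, at 17, 18.8 and 22.8, then 17.5, 20.5 and 24.6, then 17.9, 21.3 and 23.9 CPM. Of its 50-base stretches 36.9% occur elsewhere, mostly in the near-identical *Eif3j2*, and an antisense gene overlaps 1107 exonic bases, so these counts are uncertain.

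*Eif5a* fell on fasting and rose on refeeding in both genotypes. It was at 174, 188 and 197 CPM fed, 134, 160 and 164 fasted and 174, 182 and 188 refed in wild-type mice, and at 166, 190 and 208, then 129, 164 and 175, then 185, 195 and 221 in WT/Y657* mice. Every refed mouse lay above every fasted mouse of its genotype. The fasting response was -0.28 (SE 0.066, adjusted p = 0.0011) and -0.25 (SE 0.066, adjusted p = 0.00328), and the refeeding response 0.24 (SE 0.066, adjusted p = 0.00565) and 0.30 (SE 0.066, adjusted p = 0.000452).

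*Eif5b*, which encodes the GTPase that joins the ribosomal subunits, was highest in the fed state. It was at 34.8, 40.8 and 43.6 CPM fed, 25.7, 29.7 and 34.7 fasted and 21.6, 26.9 and 33.3 refed in wild-type mice, with all fed mice above the rest, and at 24.7, 34.9 and 55.5, then 20.9, 25.6 and 32.7, then 18.5, 23 and 30 in WT/Y657* mice, which overlapped. Refed against fed gave -0.53 (SE 0.14, adjusted p = 0.00326) and -0.69 (SE 0.14, adjusted p = 0.000233). Fed WT/Y657* mice ALC_MT_866, ALC_MT_868 and ALC_MT_869 were at 24.7 to 33.1 CPM and the other 3 at 36.7 to 55.5. An antisense gene overlaps 1643 of its exonic bases.

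Start-codon selection genes were mixed. *Eif1*, which guards against wrong start codons, was at 27.7, 38.3 and 45.8 CPM fed, 38.3, 41.8 and 49.1 fasted and 29.4, 34.8 and 38.4 refed in wild-type mice, and at 25.8, 34 and 52.9, then 37.4, 45.4 and 52.5, then 27, 31.1 and 38.0 in WT/Y657* mice. It fell on refeeding by 0.33 (SE 0.13, adjusted p = 0.0479) and 0.51 (SE 0.13, adjusted p = 0.0021), with overlap in both genotypes, and the wild-type call was lost in 11 of 22 alternatives (adjusted p up to 0.13). Fed WT/Y657* mice ALC_MT_866, ALC_MT_868 and ALC_MT_869 were at 25.8 to 33.1 CPM and the other 3 at 34.8 to 52.9. *Eif5*, the GTPase activator for eIF2, rose on fasting by 0.32 (SE 0.075, adjusted p = 0.00113) and 0.22 (SE 0.075, adjusted p = 0.0214). The WT/Y657* call of *Eif5* was lost in 8 of 24 alternatives (adjusted p up to 0.187). *Eif1ax* was higher in refed than in fed wild-type mice by 0.34 (SE 0.065, adjusted p = 0.000154), with no overlap, and rose on fasting in WT/Y657* (0.20) and on refeeding in wild-type mice (0.18). Its calls on fasting and on refeeding were lost in 4 of 24 and 10 of 22 alternatives (adjusted p up to 0.0845 and 0.164). Counts of *Eif3h*, *Eif1* and *Eif3m* share 20.3%, 19.2% and 17.2% of their 50-base stretches with other transcripts and are uncertain to that extent.

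Between genotypes, initiation factor genes differed in the fasted state. There 8 of 47 were higher and 3 lower in WT/Y657* than in wild-type mice (23.4% called, against 13.1% of all genes tested, 6.43% higher and 6.63% lower), with a median of 0.040 against 0.0021 over all genes. Scaled to library size alone, 10 were higher and 1 lower. The higher genes were *Eif3e*, *Eif3h*, *Eif3k*, *Eif3m*, *Eif2s1*, *Eif2s2*, *Eif1ax* and *Eif4ebp3*, and the lower genes *Eif4b*, *Eif4g1* and *Eif4ebp2*. Except for *Eif4ebp3* at 1.40 (SE 0.38, adjusted p = 0.0135), no called difference exceeded 0.40 in size. No Argonaute row was called.

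*Eif4b* had the smallest p of these (-0.34, SE 0.077, adjusted p = 0.00293), and 4 of the 6 fasted WT/Y657* mice lay below all fasted wild-type mice. *Eif4ebp2* differed by -0.40 (SE 0.14, adjusted p = 0.0471) and *Eif4g1* by -0.21 (SE 0.072, adjusted p = 0.0418), both with no overlap. *Eif3h*, at 60.6 to 72.0 CPM in wild-type and 72.2 to 87.6 in WT/Y657* mice, did not overlap either (0.24, SE 0.066, adjusted p = 0.0116). *Eif3m* differed by 0.27 (SE 0.072, adjusted p = 0.0111) and *Eif2s1* by 0.26 (SE 0.072, adjusted p = 0.0149), each with 4 mutant mice above all wild-type mice. The calls of *Eif4ebp2* and *Eif4g1* were lost in 15 and 13 of 23 alternatives (adjusted p up to 0.19 and 0.188). Those of *Eif1ax* and *Eif3k* were lost in 9 each, and that of *Eif3e* in 1. *Eif4e* (0.054, SE 0.068, adjusted p = 0.663), *Eif4a1* (0.076, SE 0.064, adjusted p = 0.478), *Eif5a* (0.044, SE 0.066, adjusted p = 0.725) and *Eif4ebp1* (0.047, SE 0.090, adjusted p = 0.792) were not called.

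The fasted mice carry numbers from 2 series (mice ONF_MT_806 to ONF_MT_827 and mice ONF_WT_918 to ONF_MT_923), and all 11 differences had the same sign within each, 3 mice against 3, but each was larger in the lower series. The 11 genes were called on these same mice, so the shared sign was largely set in advance and adds no support. *Eif2s1* differed by 0.41 in the lower and 0.09 in the upper series, *Eif3m* by 0.42 and 0.12, *Eif4ebp3* by 2.15 and 0.50, and *Eif4b* by -0.38 and -0.30. Without fasted WT/Y657* mice ONF_MT_806 and ONF_MT_827, 2 genes were called, *Eif3e* and *Eif4ebp3*. Leaving out mouse ONF_MT_827 alone left 6, mouse ONF_MT_923 left 7 and wild-type mouse ONF_WT_824 left 7. With gene length and GC content corrected 6 were called, 4 of them among the 11.

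The lowest block of fed mouse numbers held wild-type mice only, the highest WT/Y657* mice only, and the block between them both genotypes. Genotype and number block can therefore not be fully told apart in fed mice. The same limit applies to the genotype difference in the fasting response, which uses these fed mice. In the fed state edgeR called 0 of 47 genes between genotypes (2.37% of all genes were called), and 8 had an unadjusted p under 0.05. DESeq2 called 1 (644 over all genes), and edgeR's likelihood ratio test and limma-voom 0 (516 and 341 over all genes). The median was -0.082, against 0.0079 over all genes, and scaling to library size alone, which shifts every gene by 0.10 in this comparison, turned it to 0.019. Leaving out fed wild-type mouse ALC_WT_860 or WT/Y657* mouse ALC_MT_857 or ALC_MT_859 gave 1 call, and leaving out mouse ALC_MT_858 gave 2. Values were 0.014 for *Eif5a*, -0.077 for *Eif4e*, -0.097 for *Eif4a1*, -0.11 for *Eif2s1*, -0.20 for *Eif4g1* and -0.33 for *Eif4ebp2*. Refed mice also gave 0 calls of 47 (0.0287% of all genes were called), with 2 unadjusted p-values under 0.05, those of *Eif4ebp1* (0.21, SE 0.089, adjusted p = 0.43) and *Eif6* (0.19, SE 0.088, adjusted p = 0.485). DESeq2, the likelihood ratio test and limma-voom called 0 as well (25, 18 and 3 over all genes), as did edgeR without refed mice RF6_MT_810 and RF6_MT_898.

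The genotypes were then compared in their response to fasting by the interaction term. Of 47 genes, 6 were called (12.8%, against 4.35% of all genes, 2.59% higher and 1.76% lower), 5 with a higher response in WT/Y657* mice and 1 with a lower one, and the median difference was 0.13 against -0.012 over all genes. Scaled to library size alone, 1 was higher and 1 lower. *Eif4ebp3* differed by 2.24 (SE 0.54, adjusted p = 0.0167) and *Eif4b* by -0.42 (SE 0.11, adjusted p = 0.0205). *Eif2s1* (0.36, SE 0.10, adjusted p = 0.0313), *Eif3i* (0.32, SE 0.088, adjusted p = 0.0286), *Eif3j1* (0.39, SE 0.12, adjusted p = 0.045) and *Eif3m* (0.34, SE 0.10, adjusted p = 0.0468) differed upward. For *Eif2s1* and *Eif3j1* wild-type mice fell and WT/Y657* mice were not called, and for *Eif3i* and *Eif3m* WT/Y657* mice rose and wild-type mice were not called.

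**Figure D4:**
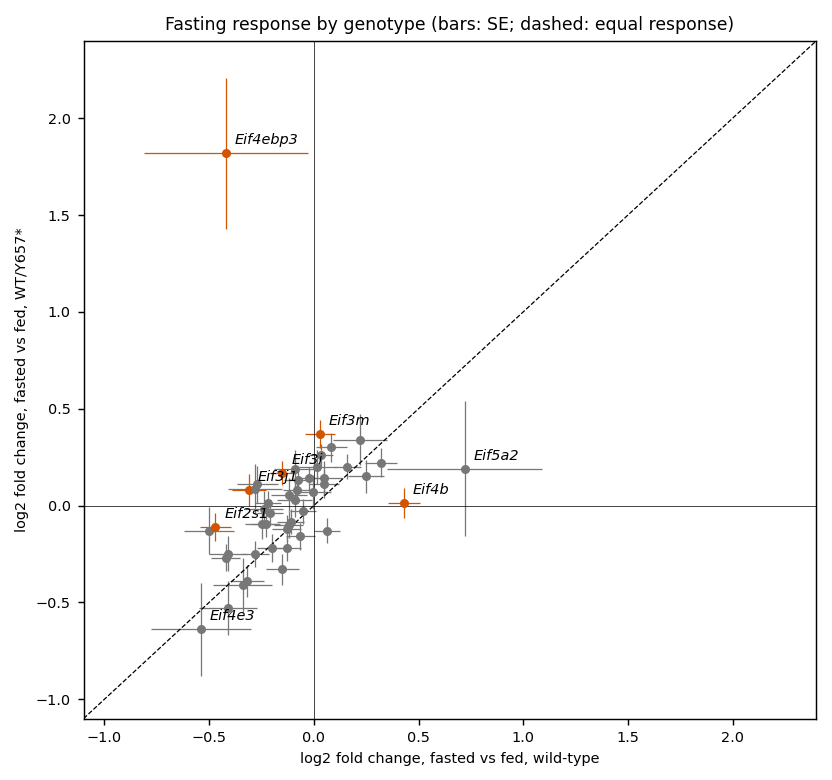
Fasting response of the 47 genes in wild-type (horizontal) and WT/Y657* mice (vertical), as log2 fold change with SE bars, orange where the 2 responses differed at an adjusted p under 0.05. Of the 47 points, 34 lie above the dashed line of equal response, with Eif4ebp3 farthest at 1.82 against -0.42.

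These 6 calls depended on which mice were included. Without fed WT/Y657* mice ALC_MT_866, ALC_MT_868 and ALC_MT_869, 1 remained, *Eif3m*, and without fasted mice ONF_MT_806 and ONF_MT_827, *Eif3j1* and *Eif4ebp3* remained. Yet *Eif3j1* and *Eif3m* lost their calls most often, in 23 and 21 of 36 alternatives (adjusted p up to 0.245 and 0.115). *Eif2s1* lost its call in 13 of the 36, *Eif3i* in 10, *Eif4b* in 2 and *Eif4ebp3* in 1. Leaving out wild-type mouse ONF_WT_807, ONF_WT_825 or ALC_WT_849 gave 2 calls, and leaving out wild-type mouse ALC_WT_847 or WT/Y657* mouse ONF_MT_826, ONF_MT_923, ALC_MT_857 or ALC_MT_868 gave 3. The fed WT/Y657* mice ALC_MT_866, ALC_MT_868 and ALC_MT_869 had 3.40 to 6.28 CPM of *Eif4ebp3*, against 7.38 to 13.5 in the other 3.

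The refeeding responses did not yield such calls, with 0 of 47 genes called by edgeR (2.06% of all genes were called) and 8 unadjusted p-values under 0.05. DESeq2, the likelihood ratio test and limma-voom also called 0 (419, 300 and 296 over all genes), as did edgeR without refed mice RF6_MT_810 and RF6_MT_898. *Eif3m* had the smallest p (-0.32, SE 0.10, adjusted p = 0.0962), and *Eif2b3* was at -0.42 (SE 0.17, adjusted p = 0.191).

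Across the 47 genes the fasting responses of the 2 genotypes had a Pearson r of 0.27 and a Spearman rho of 0.62, against a Pearson r of 0.64 over all genes. The 47 include *Eif4ebp3*, the gene farthest from equal response, whose counts are uncertain, and a Spearman rho over all genes is not given. The genotypes share no mice, but the genes share libraries, and no p is given. For refeeding the values were 0.58, 0.59 and 0.66.

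Genes that act beside the initiation factors were taken from a list of 60 genes in 6 sets, of which 59 were tested. On fasting 6 were higher and 17 lower in wild-type mice (39% called, against 32% of all genes), and 12 higher and 13 lower in WT/Y657* mice (42.4% against 32.9%). On refeeding 17 rose and 13 fell in wild-type mice (50.8% against 30.2%), and 16 rose and 9 fell in WT/Y657* mice (42.4% against 31.3%). Refed against fed, 12 were higher and 15 lower in wild-type (45.8% against 27.5%) and 17 higher and 9 lower in WT/Y657* mice (44.1% against 26.1%). *Abce1*, which recycles ribosomes, fell by 0.57 (SE 0.059, adjusted p = 7.03e-10) on fasting in wild-type mice and rose by 0.58 (SE 0.059, adjusted p = 1.33e-09) on refeeding, and it also fell on fasting and rose on refeeding (0.49) in WT/Y657* mice. *Dhx29*, a helicase for structured leaders, fell by 0.91 (SE 0.12, adjusted p = 1.18e-07) and rose by 0.78 (SE 0.12, adjusted p = 2.85e-06), with calls in the same directions in WT/Y657* mice (0.93 on refeeding). The termination factor gene *Gspt1* fell by 0.49 in wild-type (SE 0.067, adjusted p = 2.62e-07) and by 0.55 in WT/Y657* mice (SE 0.067, adjusted p = 2.81e-08) on fasting. *Pdcd4*, an inhibitor of eIF4A, fell by 0.92 (SE 0.090, adjusted p = 3.46e-10) on fasting in WT/Y657* mice, was also called lower on fasting in wild-type mice, and was lower in refed than in fed mice of both genotypes.

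Between genotypes, 1 of the 59 was lower in fed WT/Y657* mice, *Dnajc3*, an inhibitor of eIF2 kinases, at -0.52 (SE 0.094, adjusted p = 0.00277), a share of 1.69% against 2.37% of all genes. In fasted mice 7 were higher and 7 lower (23.7% against 13.1%), led by the elongation factor gene *Eef1b2* at 0.48 (SE 0.083, adjusted p = 0.000174) and the ribosomal protein gene *Rps6* at 0.43 (SE 0.085, adjusted p = 0.000732). In refed mice 1 was higher (0.0287% of all genes were called), the stress gene *Ddit3* at 1.37 (SE 0.24, adjusted p = 0.0171). The fasting response differed for 4 of the 59 (6.78% against 4.35%), which were *Dnajc3* (0.70, SE 0.13, adjusted p = 0.00224), *Eef1b2* (0.50, SE 0.12, adjusted p = 0.0113), *Pdcd4* (-0.49, SE 0.13, adjusted p = 0.0195) and *Rps6* (0.47, SE 0.12, adjusted p = 0.0196), and the refeeding response for 2 (3.39% against 2.06%), which were *Pabpn1* (-0.56, SE 0.14, adjusted p = 0.0294) and *Eef1b2* (-0.45, SE 0.12, adjusted p = 0.0339).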

How the data were processed

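The values deposited by the authors are estimated counts of liver total RNA reads, not normalized, for each gene in each mouse. The submitters' processing notes name Cuffdiff, SAMtools, featureCounts and edgeR and the build mm9, versions and strand setting are not given in the sources used here, and the files' coordinates match GRCm38 genes. Of the counts above 0, 3.64% were not whole, and all were rounded. A second table, of means fitted per condition, was not used here. Genotype, state and mouse number came from the labels.

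Genes were filtered by filterByExpr over the 6 groups, scaled by TMM and fitted by glmQLFit over all 36 libraries in edgeR 4.0.16 (R 4.3.3). Contrasts were tested two-sided by glmQLFTest with Benjamini-Hochberg adjustment over 13945 genes. In 90 pairs of mice from the same group, counts differed beyond sampling noise in each (chi-square at least 7 times its degrees of freedom), and no libraries were merged as repeats. Fits were checked on simulated counts. Coordinates, exon lengths and overlaps came from GENCODE M21. Intervals of levels cover the spread between mice.

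Members, roles and lists were chosen with earlier results of these data known. Named in the text are 8 core genes, every called member, and levels for the 4 called members with the largest change and a mean CPM of at least 1 in each comparison, up to 4 listed genes of smallest p and *Pik3r1*. The further helicase, eIF3 and start-codon values given in passing are of called members. Alternatives were DESeq2 1.42.0, the likelihood ratio test, limma-voom (limma 3.58.1), 2 scalings, 2 filters, fewer groups, mouse number series or blocks as covariates, corrections for length and GC content, and leaving out each mouse. Leaving out the sets of WT/Y657* mice that stood apart was chosen after seeing the data.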

Additional observations from a re-analysis of the deposited data

Results flagged for a closer look

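Of the 47 genes, 6 responded differently to fasting in the 2 genotypes by the interaction term (edgeR, adjusted p): *Eif4ebp3* by 2.24 (0.0167), *Eif4b* by -0.42 (0.0205), *Eif3i* by 0.32 (0.0286), *Eif2s1* by 0.36 (0.0313), *Eif3j1* by 0.39 (0.045) and *Eif3m* by 0.34 (0.0468), as WT/Y657* minus wild-type response. The first of these rests on a gene whose counts are shared with a readthrough transcript.

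In 102 groups of 6 mice, 17 genes in each of the 6 groups, the gap of 1 mouse to the nearest other was large against the group's range in 6. Chance alone gives about 1 in 20. Refed wild-type mouse RF6_WT_816 had 18.6 CPM of *Eif2b3* against 11.9 to 14.4 in the others, and fed wild-type mouse ALC_WT_849 had 107 CPM of *Eif3b* against 97.3 to 101. Fasted WT/Y657* mouse ONF_MT_806 had 107 CPM of *Eif4a1* against 124 to 132, and fasted wild-type mouse ONF_WT_807 had 270 CPM of *Eif4b* against 315 to 338. Refed WT/Y657* mouse RF6_MT_810 had 29.2 CPM of *Eif4ebp3* against 8.65 to 14.3, and fasted WT/Y657* mouse ONF_MT_923 had 40.2 CPM of *Eif4g3* against 45.7 to 47.5.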

How the results depend on the processing

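No called gene changed direction under any alternative tried. Counts of called initiation factor genes moved by over 1.5 times in these cases, and beyond the construction of each alternative (fewer mice or other genes tested) the cause was not tested. Counts called over all genes are mostly not given beside them, here or above. A change in these counts can therefore not be read as particular to the initiation factor genes. The genotype difference in fasted mice went from 11 to 6 with length and GC content corrected or with no filter on low counts, to 2 without mice ONF_MT_806 and ONF_MT_827, and to between 6 and 12 with 1 mouse left out. In fed mice 1 gene was called instead of 0 by DESeq2, with length and GC content corrected or with library size only, and 0 to 2 with 1 mouse left out. The fasting response of WT/Y657* mice went from 18 to 11 with only the groups compared, refeeding in wild-type mice from 23 to 15 without mouse RF6_WT_816 (15 to 22 over all mice left out in turn), and refed against fed wild-type mice from 16 to 9 with no filter. The genotype difference in the fasting response went from 6 to 3 with length and GC content corrected, to 2 with library size only, no filter, only the groups compared or without mice ONF_MT_806 and ONF_MT_827, to 1 without mice ALC_MT_866, ALC_MT_868 and ALC_MT_869, and to between 2 and 6 with 1 mouse left out. Scaling to library size only raised the share of higher calls from 72.7% to 90.9% in the fasted genotype comparison, from 82.6% to 92.9% and from 85.7% to 95.7% on refeeding, kept refed against fed within 10 points (75.0% to 84.2% and 78.9% to 88.5%), and lowered it from 44.4% to 25% on fasting in WT/Y657* mice. Among values of single named genes, 4057 stayed on their side of the threshold, 448 lost the call and 12 gained it. In 50 of the former the sign changed in a value called under neither setting. No paired analysis was possible because the groups share no mouse numbers. Depth limits mainly *Eif5a2*, *Eif4e3*, a tested row of *Eif2c2* with 269 counts over all 36 libraries, and the 3 genes too low to test.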
